A study of Mus musculus with 8 samples.

Results

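The genes described here encode 10 core cardiac transcription factors: the zinc-finger factors Gata4 and Gata6, the homeobox factor Nkx2-5, the T-box factors Tbx5 and Tbx20, the basic helix-loop-helix factor Hand2, the MADS-box factors Mef2a, Mef2c and Mef2d, and Hopx. They were taken by symbol, and all 10 were found among the 24411 gene symbols of the count tables. All 10 passed the filter on low counts that left 13506 genes for testing. RNA came from heart tissue of 8 C57BL/6 mice taken 1 week after transverse aortic constriction, a surgical narrowing of the aorta that loads the left ventricle with pressure. The groups were 4 MerCreMer control mice and 4 mice with a cardiac-specific knockout of the transcription factor Yin-Yang 1 (YY1 KO hereafter). MerCreMer is a Cre recombinase that stays inactive until a ligand reaches its mutated oestrogen receptor domains. The sources used here do not name the promoter driving it, the inducing agent, the floxed alleles, the ages or the part of the heart taken. Every heart was loaded, so the comparison asks which transcripts differ by genotype under pressure, and no effect of load itself can be read from it.

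The 10 genes are the regulators that set up the heart muscle program in the embryo and keep it running in the adult. GATA factors, NKX2-5, TBX5 and HAND2 bind next to each other at enhancers of contractile, conduction and natriuretic peptide genes and activate them together. MEF2 factors are held in check by class IIa histone deacetylases and released by calcium and stress signals. HOPX is an unusual homeodomain protein that does not bind DNA and acts through partners such as serum response factor and histone deacetylases.

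The series describes all 8 mice as male, but 4 hearts expressed Xist and no more than traces of Y-linked transcripts. Controls 1 and 4 and YY1 KO 1 and 4 were Xist-positive (138 to 219 CPM, against at most 0.385 CPM in the other hearts), while 2 controls and 2 YY1 KO hearts carried Y-linked transcripts. CPM is the read count of a gene scaled to all gene reads of its library. The genotypes were therefore balanced for sex, with 2 hearts of each sex per genotype. Gene reads numbered 14582605 to 16000455 per library. Yy1 stood at 33.8 to 37.2 CPM in controls and at 18 to 23.8 CPM in YY1 KO hearts, where it fell by 0.78 ± 0.10 on the log2 scale (SE; Benjamini-Hochberg adjusted p = 0.000769 in the quasi-likelihood test of edgeR, used throughout). In bulk tissue, fewer cells of a type and less RNA per cell cannot be told apart.

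Of the 10 factors, 1 fell in YY1 KO hearts, 0 rose and 9 did not pass an adjusted p of 0.05 in edgeR's test. Of all tested genes, 38.9% passed, 21.6% as higher and 17.3% as lower in YY1 KO. At an unadjusted p under 0.05 the counts for the factors were 2 lower and 0 higher. DESeq2 called 2 lower and 0 higher, and limma-voom 1 lower and 0 higher. The 1 called gene was Hopx. The median log2 fold change of the 10 factors was −0.19, against 0.013 over all tested genes, and the median size of the change regardless of sign was 0.21, against 0.35. For 9 of the 10 the change was smaller than that median of all genes. The 95% interval of the log2 fold change lay within a 2-fold change in either direction for 8 factors, all but Tbx5 and Hopx, as it did for 67.0% of all tested genes.

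**Figure D1:**
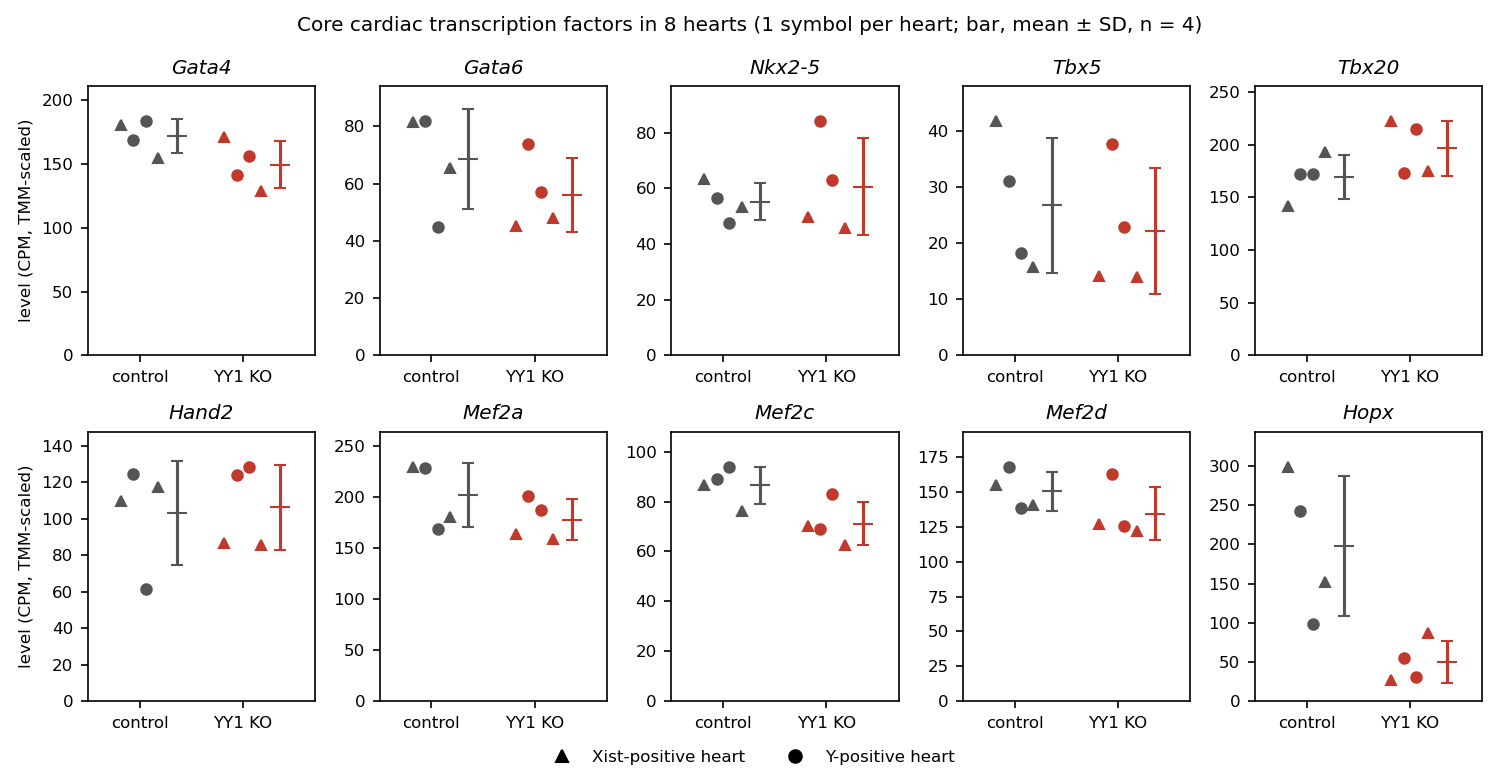
Level of each factor in each heart, in CPM after TMM scaling, with controls in grey and YY1 KO in red, triangles for Xist-positive and circles for Y-positive hearts, and the mean ± SD of 4 hearts beside them. The groups overlap in every panel except that of Hopx, where the lowest control (98.5 CPM) lies above the highest YY1 KO heart (86.5 CPM).

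**Figure D2:**
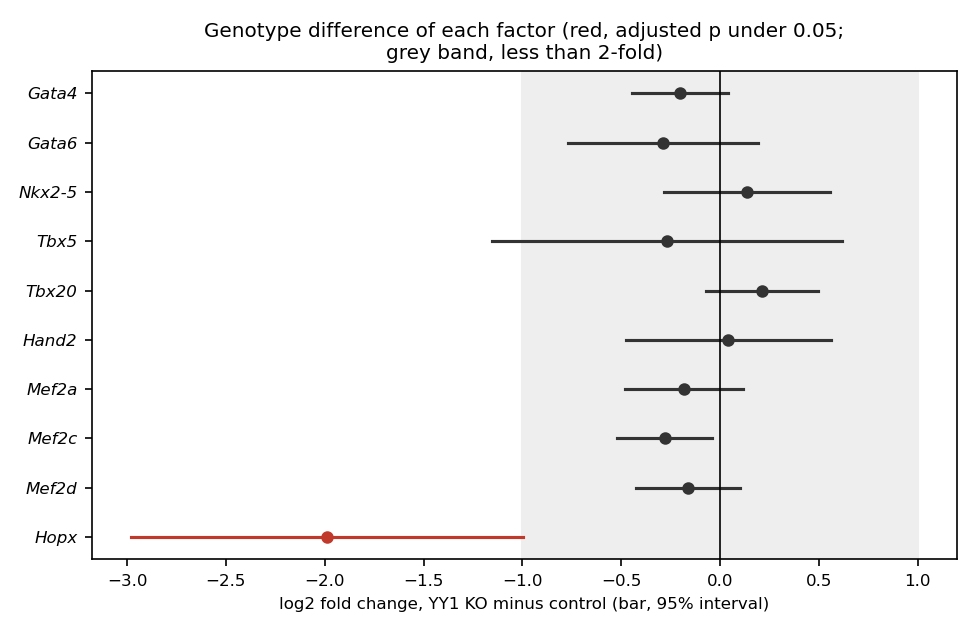
Log2 fold change of each factor, YY1 KO minus control, with its 95% interval as a bar. Hopx (red, adjusted p under 0.05) lies at −1.99 and the other factors lie between −0.29 and 0.21.

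Hopx had the highest level per length of the 10 factors in control hearts. It lies on mm10 chromosome 5 (77086988 to 77115121, minus strand). Its level was 299 CPM in control 1, 243 in control 2, 98.5 in control 3 and 152 in control 4. In YY1 KO hearts 1 to 4 it was 27.6, 54.5, 30.9 and 86.5 CPM. All 4 YY1 KO hearts were below all 4 controls, although YY1 KO 4 came close to control 3. Such a separation of the groups was seen for 38.3% of all tested genes. The mean fell from 198 ± 89.7 to 49.9 ± 27.2 CPM (SD, n = 4), which is 25.2% of the control level. On the log2 scale this was −1.99 ± 0.44 (SE; 95% interval −2.98 to −0.998; edgeR adjusted p = 0.00724). The exact permutation p, two-sided, was 0.0286, the smallest that 4 against 4 hearts allow. Of the 13506 tested genes, 132 had a lower log2 fold change.

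The difference of Hopx was of similar size in hearts of either sex, with an interaction of −0.019 ± 0.92 on the log2 scale (edgeR). Its log2 fold change was −1.98 in the Xist-positive hearts alone and −2.02 in the Y-positive hearts alone, with 2 hearts per genotype in each. The second passed (edgeR adjusted p = 0.0334) and the first did not (adjusted p = 0.156). In the Xist-positive hearts 0 of all genes passed, with 3451 at an unadjusted p under 0.05. Leaving out each heart in turn gave −2.40 to −1.73, with an adjusted p of at most 0.0266. An antisense gene, Hopxos, overlaps exons of Hopx on the opposite strand and is not analysed here. Reads from the strand opposite to Hopx made up 1.23% of its strand-resolved reads, and sense-strand counts gave a log2 fold change of −1.98.

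Hopx has 2 RefSeq start sites, and the 250 bases before each are shown because it is the factor that fell. Both are on the minus strand of GRCm38.p6, the build that mm10 corresponds to. Capitals mark the motif matches that were found.
Hopx upstream start, chr5:77115124-77115373: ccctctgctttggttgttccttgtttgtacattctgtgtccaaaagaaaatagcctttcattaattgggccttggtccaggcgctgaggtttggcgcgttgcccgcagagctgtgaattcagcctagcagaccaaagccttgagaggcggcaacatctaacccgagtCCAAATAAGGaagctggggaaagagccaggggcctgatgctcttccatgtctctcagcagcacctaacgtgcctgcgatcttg
Hopx downstream start, chr5:77095268-77095517: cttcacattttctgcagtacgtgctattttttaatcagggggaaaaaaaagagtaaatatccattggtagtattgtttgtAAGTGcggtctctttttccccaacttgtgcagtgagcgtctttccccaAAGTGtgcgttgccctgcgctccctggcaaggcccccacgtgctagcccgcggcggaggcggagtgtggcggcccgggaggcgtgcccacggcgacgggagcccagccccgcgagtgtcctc

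The upstream window holds 1 CArG box, the serum response factor motif, at positions −83 to −74 from the start. Among 32851 windows of 250 bases before RefSeq starts, 1.47% hold such a box. The downstream window holds AAGTG, the core bound by NKX2-5, at 2 places, and 40.7% of all windows hold it on either strand. The YY1 core CCATNTT, the GATA motif AGATAA, the T-box motif GGTGTGA and the MEF2 box were searched on both strands as well and match neither Hopx window. They occur in 12.4%, 9.99%, 3.33% and 2.92% of all windows. Windows were matched for 7 of the 10 factors, not for Gata4, Gata6 and Tbx5, and CCATNTT matches none of the 10 windows of these 7 genes. A match or its absence describes letters only and says nothing of binding. The tables count whole genes, so the reads of Hopx cannot be divided between its starts.

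The genes whose levels most resembled those of Hopx over the 8 hearts were Asb14, which encodes an ankyrin-repeat protein with a SOCS box, Epha4, an ephrin receptor gene, and Eci1, which encodes an enoyl-CoA isomerase of mitochondrial fatty acid oxidation. Likeness was measured as the root mean square difference of log2 CPM after centring each gene on its own mean, and was 0.21, 0.24 and 0.26. Asb14 ran from 57.4 to 136 CPM in controls and from 12.2 to 35.1 in YY1 KO hearts, with control 1 the highest and YY1 KO 4 the highest of their groups, as for Hopx. The 3 genes were chosen for their likeness, and their genotype differences are no further support for that of Hopx.

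Gata4, an activator of hypertrophic genes that pairs with most other members, is on chromosome 14 (63198922 to 63271692). Its level was 181, 169, 184 and 154 CPM in controls 1 to 4, and 171, 141, 156 and 129 CPM in YY1 KO hearts 1 to 4. The groups overlapped, with YY1 KO 1 at the level of control 2. This was a log2 fold change of −0.20 ± 0.11 (SE; 95% interval −0.45 to 0.042, edgeR adjusted p = 0.168). It was −0.16 in the Xist-positive and −0.26 in the Y-positive hearts alone.

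Its relative Gata6, which also acts in smooth muscle and fibroblasts, ran from 45 to 81.9 CPM in controls and from 45.2 to 73.9 CPM in YY1 KO hearts. The lowest control and the lowest YY1 KO heart were nearly equal, and the log2 fold change was −0.29 ± 0.21 (95% interval −0.77 to 0.19, edgeR adjusted p = 0.31). Its sign was not stable, as it was 0.028 in the Y-positive hearts alone and −0.66 in the Xist-positive hearts alone. As a share of the per-length level of the pair, Gata4 held 80.8% ± 4.38 in controls and 81.5% ± 4.19 in YY1 KO hearts (SD, n = 4). The balance between the relatives thus shifted by less than the spread between hearts. The noncoding gene 1010001N08Rik overlaps Gata6 head to head, with its start 503 bases away on the opposite strand. It was at 9.66 ± 2.03 CPM in controls and 13.6 ± 5.41 CPM in YY1 KO hearts and did not pass over all hearts (edgeR adjusted p = 0.194). It was higher in the Y-positive hearts alone (log2 fold change 1.02, adjusted p = 0.0221) and not in the Xist-positive hearts (−0.21), and this difference between the sexes was not tested.

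Nkx2-5 (chromosome 17, 26838664 to 26845009), the homeobox gene needed for early heart formation and conduction, was at 63.5, 56.6, 47.6 and 53.1 CPM in controls 1 to 4. In YY1 KO hearts 1 to 4 it was at 49.7, 84.1, 63.1 and 45.7 CPM. The YY1 KO hearts lay on either side of the controls, with the highest and the lowest level of all 8 hearts among them. The log2 fold change was 0.14 ± 0.19 (95% interval −0.29 to 0.56, edgeR adjusted p = 0.589). It was 0.48 in the Y-positive hearts, −0.29 in the Xist-positive hearts and −0.064 without YY1 KO 2. The interaction of genotype and sex was 0.79 ± 0.25 on the log2 scale, with an unadjusted p of 0.0155 and an adjusted p of 0.812 in edgeR's test. For no factor did this interaction pass, with adjusted p of at least 0.812 for all 10.

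Tbx5 (chromosome 5, 119832668 to 119885219), which drives atrial, septal and conduction genes, varied most between hearts of the same genotype apart from Hopx. It was at 41.7, 31.1, 18.3 and 15.7 CPM in controls 1 to 4 and at 14.1, 37.6, 22.9 and 13.9 CPM in YY1 KO hearts 1 to 4. The highest control was 2.66 times the lowest and the highest YY1 KO heart 2.71 times the lowest, while the group means differed 1.2-fold. The log2 fold change was −0.27 ± 0.39, and its interval (−1.16 to 0.62) reaches past a 2-fold decrease (edgeR adjusted p = 0.612). It was 0.020 without control 1, 0.28 in the Y-positive hearts and −1.03 in the Xist-positive hearts, and neither sex alone passed. A difference of less than about 2-fold was not detectable for this gene here.

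Tbx20 (chromosome 9, 24718138 to 24774303), a T-box gene of chamber muscle and endocardium, was at 142, 172, 172 and 193 CPM in controls 1 to 4 and 223, 174, 215 and 175 CPM in YY1 KO hearts 1 to 4. Controls 1 to 3 lay below all YY1 KO hearts, and control 4 lay among them. YY1 KO exceeded control by 0.21 ± 0.13 on the log2 scale (95% interval −0.073 to 0.50, edgeR adjusted p = 0.211), the largest positive estimate among the factors. It was 0.25 in the Xist-positive and 0.16 in the Y-positive hearts alone.

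Hand2 (chromosome 8, 57320983 to 57324633), which patterns the right ventricle and is kept in fibroblasts, had the smallest estimate over all hearts. Controls 1 to 4 had 110, 124, 61.3 and 117 CPM, and YY1 KO hearts 1 to 4 had 86.8, 124, 128 and 85.6 CPM. Control 3 stood below every other heart. Its log2 fold change was 0.042 ± 0.23 (95% interval −0.48 to 0.56, edgeR adjusted p = 0.898), and it was −0.15 without control 3, −0.042 without YY1 KO 2 and −0.060 without YY1 KO 3. The hearts of each sex alone gave estimates of opposite sign, −0.40 in the Xist-positive and 0.42 in the Y-positive hearts. Their interaction was 0.84 ± 0.41, with an unadjusted p of 0.0774 and an adjusted p of 0.812 (edgeR). The antisense gene Hand2os1, known to act on Hand2, overlaps it in the annotation and is not analysed here. Reads from the strand opposite to Hand2 made up 3.05% of its strand-resolved reads.

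The 3 MEF2 genes all had estimates below 0. Mef2c (chromosome 13, 83504034 to 83667080), needed for the anterior heart field and also expressed in endothelial and immune cells, was at 86.8, 89.1, 93.8 and 76.1 CPM in controls 1 to 4. In YY1 KO hearts 1 to 4 it was at 70.1, 68.9, 83.2 and 62.5 CPM. All but YY1 KO 3 were below every control. The log2 fold change of −0.28 ± 0.11 (95% interval −0.52 to −0.041) did not pass (edgeR adjusted p = 0.0635; unadjusted p = 0.0265), and a two-sided exact permutation test gave p = 0.0571. The call depends on the processing. Mef2c passed with RLE scaling (adjusted p = 0.0496), DESeq2 (0.0333), a term for sex (0.0443) and the mouse number as a block (0.0489). It also passed without control 4 (0.0428) or YY1 KO 3 (0.0311). Its log2 fold change ranged from −0.36 to −0.22 over the hearts left out in turn. It was −0.30 in the Xist-positive and −0.28 in the Y-positive hearts alone, and passed in neither.

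Mef2a (chromosome 7, 67231163 to 67372858), which maintains mitochondria in the postnatal heart, ran from 169 to 229 CPM in controls and from 158 to 201 CPM in YY1 KO hearts (log2 fold change −0.18 ± 0.13, 95% interval −0.48 to 0.12, edgeR adjusted p = 0.298). Mef2d (chromosome 3, 88142372 to 88172086), a mediator of stress-dependent remodelling, ran from 138 to 168 CPM and from 122 to 163 CPM (−0.16 ± 0.12, 95% interval −0.42 to 0.10, adjusted p = 0.296). In both the groups overlapped. In the Xist-positive hearts alone Mef2a was at −0.35 and Mef2d at −0.25, and in the Y-positive hearts alone they were at −0.048 and −0.10. Per length, Mef2d made up 56.7% ± 1.14 of the sum of the 3 genes in controls and 57.4% ± 2.63 in YY1 KO hearts. Mef2a held 30.8% ± 2.05 and 31.0% ± 1.17, and Mef2c 12.5% ± 1.51 and 11.7% ± 1.61. The composition of the family differed between genotypes by less than its spread between hearts.

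Neighbouring genes share sequence with 2 MEF2 genes. Lysmd4 overlaps Mef2a on the opposite strand and was at 19.1 ± 4.33 CPM in controls and 17.0 ± 0.888 CPM in YY1 KO hearts (edgeR adjusted p = 0.43). The antisense gene 1700113A16Rik overlaps the end of Mef2d. Of its strand-resolved reads, 91.2 to 98.1% came from the opposite strand, which is that of Mef2d, so its level of 16.1 ± 2.24 CPM in controls and 17.7 ± 4.16 CPM in YY1 KO hearts cannot be assigned to it. Its few sense reads alone gave a log2 fold change of 1.5. Over all genes, 2.66 to 5.31% of strand-resolved reads in a library lay opposite to the gene. Such stray reads cannot be told from its sense reads, and the gene could pass the filter through the YY1 KO hearts alone. No genotype difference is read from this value. For all 10 factors the opposite strand gave 0.651 to 5.73% of reads, and sense-strand counts changed no call among them.

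Levels of different genes can be compared only per length. CPM was divided by the kb of annotated exon, which spreads reads over exons that a given transcript may lack. In control hearts the order was Hopx (131 ± 59.2 CPM per kb), Gata4 (44.0 ± 3.40), Hand2 (43.9 ± 12.1), Nkx2-5 (32.1 ± 3.85), Mef2d (25.2 ± 2.31), Tbx20 (14.2 ± 1.75), Mef2a (13.7 ± 2.15), Gata6 (10.5 ± 2.68), Tbx5 (5.71 ± 2.58) and Mef2c (5.50 ± 0.478). The hearts of neighbouring genes in this order did not overlap at 2 steps, from Hopx to Gata4 and from Mef2d to Tbx20, and overlapped at the other steps. In YY1 KO hearts Hopx (32.9 ± 18 CPM per kb) came after Hand2 (45.2 ± 9.84), Gata4 (38.3 ± 4.73) and Nkx2-5 (35.3 ± 10.1), within their spread. Averaged over the genotypes, Hopx stood at or above 96.3% of the tested genes with a known length, Hand2 above 93.1% and Mef2c above 51.4%.

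**Figure D3:**
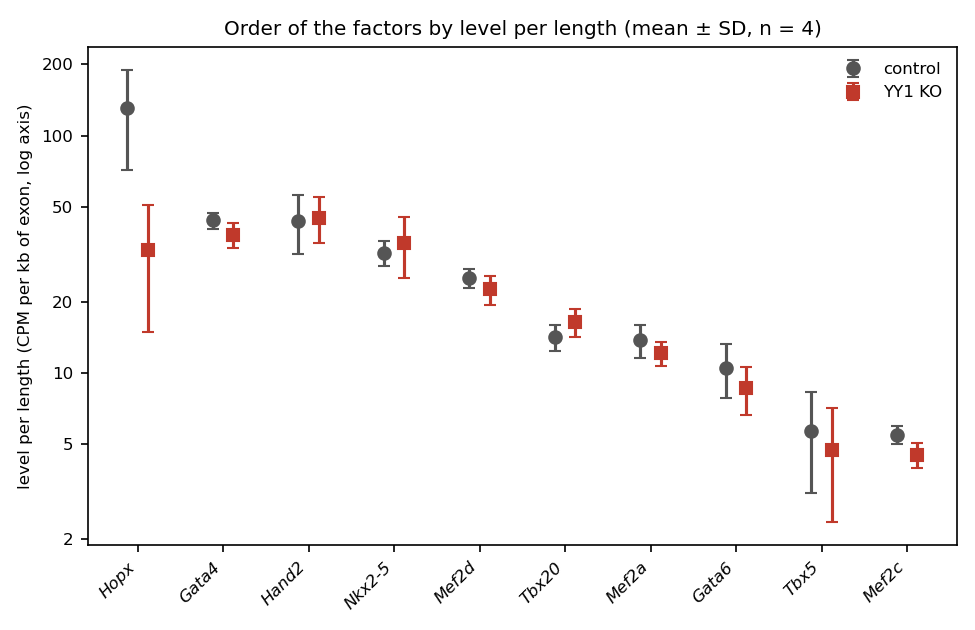
Mean level per kb of exon on a log axis, ± SD of 4 hearts, with genes ordered by their control level. Hopx drops from 131 to 32.9 CPM per kb, from the highest level to one near those of Gata4, Hand2 and Nkx2-5.

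The factors varied from heart to heart within each genotype. For all factors but Hopx, the ratio of the highest to the lowest heart within each genotype (1.19 to 2.71) exceeded the ratio of the group means for that gene (1.03 to 1.22). A range over 4 hearts tends to exceed a difference of means, so this comparison is no test of a genotype effect. The hearts that were high recurred across genes. Controls 1 and 2 and YY1 KO 2 and 3 were above, and the other hearts below, the mean log2 level of their genotype for Gata6, Nkx2-5, Tbx5 and Mef2a, which were picked after these values were seen. YY1 KO 4 had the lowest level of its group for 7 of the 10 factors and the highest for Hopx. YY1 KO 2 had the highest for 5, and control 3 the lowest of its group for 6. The same hearts were separated by the second principal component of the 2000 most variable genes, with 22.8% of the variance. It was positive in controls 1 (35.7) and 2 (8.01) and YY1 KO 2 (29.0) and 3 (5.31) and negative in the others. Markers of several cell types moved with it, and any of them among the 2000 genes also helped to define it. The summed level of cardiomyocyte markers was 89528 and 80364 CPM in controls 1 and 2, against 61589 and 73247 CPM in controls 3 and 4. It was 71127 and 68448 CPM in YY1 KO 2 and 3, against 45936 and 60820 CPM in YY1 KO 1 and 4. Myh6 was the largest part of this sum. Fibroblast markers, and an atrial sum made up mostly of Nppa, split the same hearts the other way. Fibroblast markers summed to 909 and 1541 CPM in controls 1 and 2 against 2905 and 2778 CPM in the other controls, and to 1691 and 2692 CPM in YY1 KO 2 and 3 against 4355 and 3326 CPM in the other YY1 KO hearts. Atrial markers summed to 192 and 1239 against 2870 and 4318 CPM in controls, and to 3028 and 3279 against 4088 and 3839 CPM in YY1 KO hearts. Nppa alone was at 4283 CPM in control 4 and 4034 CPM in YY1 KO 1, so this sum need not follow atrial cells. The part of these cells in the spread of the factors was not tested.

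**Figure D4:**
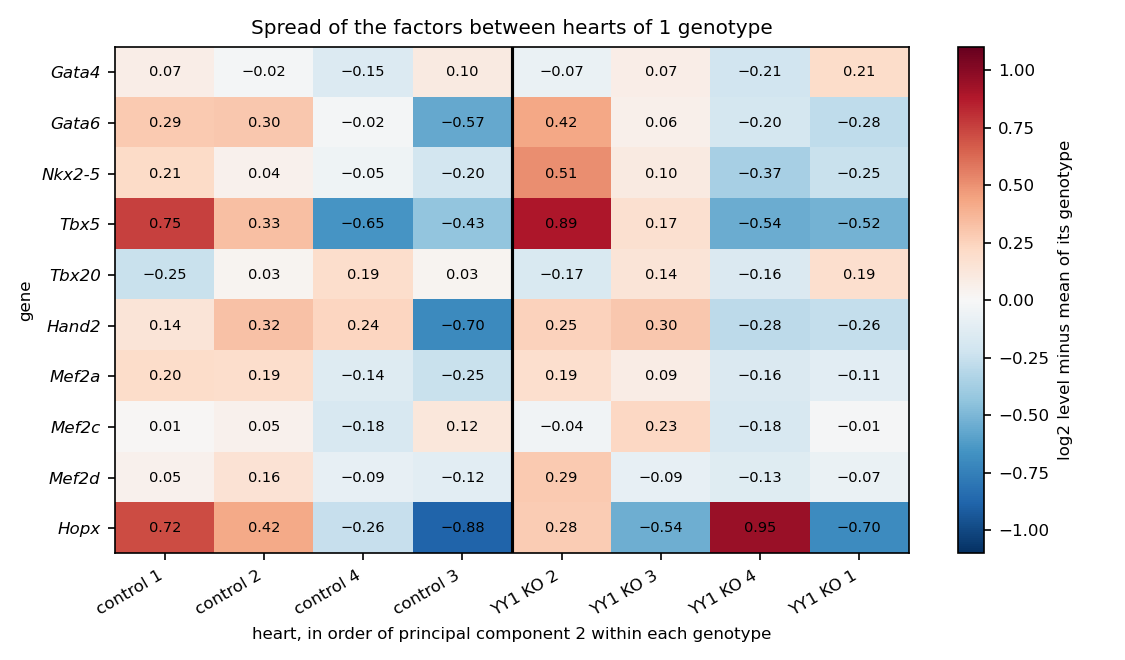
Log2 level of each factor in each heart minus the mean of its genotype, with hearts in order of the second principal component within each genotype. Tbx5 is high in control 1 (0.75) and YY1 KO 2 (0.89), and Hopx differs from it in YY1 KO 4 (0.95 against −0.54).

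The factors act with coactivators that open chromatin at their enhancers. Of 16 coactivators and partners, 6 fell, 1 rose and 9 did not pass, and the median log2 fold change was −0.14. The share called, 43.8%, was near the 38.9% of all tested genes, of which 17.3% were lower and 21.6% higher. Smyd1, a muscle methyltransferase gene under MEF2C control, went from 618 to 735 CPM in controls to 288 to 428 CPM in YY1 KO hearts (log2 fold change −0.95 ± 0.14). Camta2, a coactivator of NKX2-5 released by class II deacetylase export, fell by 0.51 ± 0.077 and the acetyltransferase gene Ep300 by 0.42 ± 0.078 on the log2 scale. Kat2b, which encodes the acetyltransferase PCAF, rose from 124 ± 8.65 to 207 ± 41.2 CPM (0.74 ± 0.14). For these 4 genes the highest adjusted p in edgeR's test was 0.00398. Ep300 did not pass in the hearts of either sex alone.

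Among 16 corepressors, 4 fell, 1 rose and 11 did not pass, with a median log2 fold change of −0.20. The share called was 31.2%, against 38.9% of all tested genes (17.3% lower and 21.6% higher). Jarid2, a Polycomb-associated repressor of cardiac genes, went from 46.3 ± 8.11 to 25.2 ± 2.29 CPM (−0.88 ± 0.13), and Ncor1, the nuclear receptor corepressor gene, from 153 ± 13.6 to 106 ± 5.16 CPM (−0.52 ± 0.088). Of the class IIa deacetylases that bind MEF2, Hdac4 fell (−0.59 ± 0.13), while Hdac5 (−0.20 ± 0.17), Hdac7 (−0.35 ± 0.13) and Hdac9 (−0.20 ± 0.12) did not pass. Hdac3, the catalytic partner of NCOR1, rose (0.39 ± 0.10). Zfpm1, which encodes the GATA cofactor FOG1, fell by 0.42 ± 0.12 with overlapping groups. The highest adjusted p of the 5 called genes was 0.0218 (edgeR). Its relative Zfpm2, which encodes FOG2, did not pass (−0.16 ± 0.14, edgeR adjusted p = 0.394). The HOPX partner Hdac2 was at 75.6 ± 4.32 and 73.3 ± 4.48 CPM (adjusted p = 0.685). Srf, the serum response factor gene from the coactivator list, fell from 203 ± 11.1 to 158 ± 10.2 CPM. Its log2 fold change was −0.36 ± 0.084 (edgeR adjusted p = 0.00895). Ncor1, Hdac4 and Hdac3 did not pass in the hearts of either sex alone.

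Paralogs of the factors and other developmental heart factors included 28 genes, of which 20 were tested and the other 8 had at most 10 reads in any library. Of the 20, 7 fell and 13 did not pass, and 0 rose in edgeR's test, also at an unadjusted p under 0.05 and with DESeq2 and limma-voom. Their median log2 fold change was −0.36. The share called, 35%, was near the 38.9% of all tested genes, of which 17.3% were lower and 21.6% higher. Prox1, a homeobox gene of sarcomere organisation and lymphatic endothelium, went from 39.5 ± 12 to 18.9 ± 3.80 CPM (−1.06 ± 0.24), and the homeobox gene Meis1, a brake on cardiomyocyte division, from 37.7 ± 9.38 to 21.5 ± 1.18 CPM (−0.81 ± 0.17). Irx4, which marks ventricular muscle, fell by 0.53 ± 0.13 (highest edgeR adjusted p of the 3 genes 0.0122). With single hearts left out, the number of this list that was lower ranged from 3 to 8. It was 4 when the heart was control 3, YY1 KO 1 or YY1 KO 2, 3 when it was control 4 or YY1 KO 3, and 8 when it was control 1.

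Known targets of the factors include contractile, calcium-handling, channel and peptide genes. Smyd1 and Myocd are on this list and on that of the coactivators, so the fall of Smyd1 is counted in both. Of 33 tested targets, 14 fell, 4 rose and 15 did not pass, so that 54.5% were called, against 38.9% of all tested genes (17.3% lower and 21.6% higher). The median log2 fold change was −0.41, and the median size regardless of sign 0.78, against 0.35 over all tested genes. The calcium pump gene Atp2a2 was at 13087 to 24926 CPM in controls and 5637 to 7562 CPM in YY1 KO hearts (−1.49 ± 0.22, edgeR adjusted p = 0.0012). The largest decreases, named after their values were seen, were those of the creatine kinase gene Ckm (1462 ± 170 to 159 ± 185 CPM, −3.20 ± 0.68, and −4.46 without YY1 KO 4), the pacemaker channel gene Hcn4 (−2.59 ± 0.43) and Hrc (−2.13 ± 0.35) (highest edgeR adjusted p 0.00598).

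Increases among the targets rested on few hearts in part. Myl4, an atrial light chain gene, rose from 1.2 to 2.21 CPM in controls to 4.51, 5.16, 4.74 and 24.1 CPM in YY1 KO hearts 1 to 4 (2.48 ± 0.61, edgeR adjusted p = 0.012), and the log2 fold change was 1.48 without YY1 KO 4 (adjusted p = 0.00347). Myh7, the slow myosin gene, rose by 1.75 ± 0.50 (adjusted p = 0.0217), and was not called when control 2 (1.67, adjusted p = 0.0615) or YY1 KO 2 (1.34, 0.0558) was left out. Id2, a repressor of basic helix-loop-helix factors, rose by 0.74 ± 0.20 (adjusted p = 0.0164), and was not called when control 2 (0.0516) or YY1 KO 3 (0.0501) was left out. The natriuretic peptide genes Nppa (0.72 ± 0.71) and Nppb (0.99 ± 0.46) did not pass, with Nppa at 159 CPM in control 1 and 1213 to 4283 CPM in the other 7 hearts. Control 1 was also the lowest of all hearts for Nppb (220 CPM) and Myh7 (514 CPM). Whether the load differed between hearts was not tested. Myh7 and Id2 did not pass in the hearts of either sex alone. The number of targets that rose was 2 without control 2 or YY1 KO 2.

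**Figure D5:**
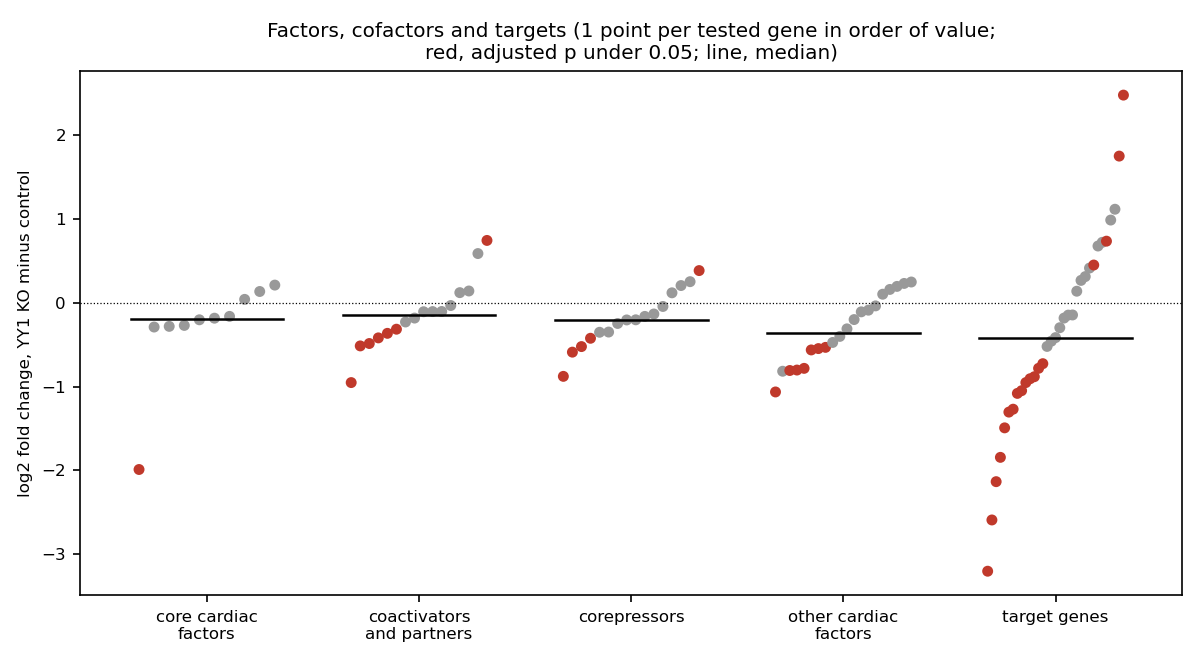
Log2 fold change, YY1 KO minus control, of each tested gene of the 5 lists in order of value, with genes of adjusted p under 0.05 in red and a line at the median of each list. Targets run from −3.20 to 2.48, and the core factors other than Hopx from −0.29 to 0.21.

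Markers of other cells moved with genotype beside these results. Of 7 endothelial markers 6 fell, with a summed level of 1655 to 2276 CPM in controls and 1124 to 1433 CPM in YY1 KO hearts, and of 7 pericyte and smooth muscle markers 4 fell (1019 to 1207 against 532 to 729 CPM). Of 8 cardiomyocyte markers 1 fell, Myl2, and the summed level was 61589 to 89528 CPM in controls and 45936 to 71127 CPM in YY1 KO hearts. The largest part of this sum was Myh6 (39100 ± 5720 CPM in controls and 28471 ± 6222 CPM in YY1 KO hearts). Mean levels of Tnnt2 (124% of control) and Actn2 (121%) were higher in YY1 KO without passing, and those of the other cardiomyocyte markers were lower. Of 7 fibroblast markers 1 rose. Of 7 macrophage markers 0 passed, and 0 had an unadjusted p under 0.05. Over all tested genes 17.3% were lower and 21.6% higher. Of 7 atrial markers 4 were tested, of which 2 rose and 1 fell. The defining atrial genes Sln, Myl7 and Bmp10 were under the filter, which asks for reads in several hearts. Their highest count in any library was 185 reads, so atrial transcripts were not absent from every heart. Markers of lymphocytes (1 of 5 tested), mesothelium (1 of 5), Schwann cells (3 of 4) and erythroid cells (1 of 4) had 0 called genes in edgeR's test, and 0 at an unadjusted p under 0.05. Several factors are expressed in these other cells too, and the part of cell composition in any value above was not tested.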

How the data were processed

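The authors trimmed reads with Trimmomatic and aligned and counted them with STAR on mm10, per the submitters' processing notes. They deposited 1 table of raw counts for each of 8 hearts, by gene symbol. The sources used here do not name versions, settings or the annotation. Of all reads, 33.0 to 38.9% were assigned to no gene and were left out. Counts irrespective of strand were tested on all 8 libraries with edgeR 4.0.16 (filterByExpr with a minimum count of 10, TMM scaling, robust quasi-likelihood fit, genotype as the only term), and p was adjusted by Benjamini-Hochberg over all 13506 tested genes. CPM uses TMM-scaled library sizes of gene reads, except for Xist and Y-linked genes, which were not scaled. Log CPM used a prior count of 2. Positions and exon lengths are from GENCODE M21 (GRCm38), which matched 23376 of 24411 symbols, and promoter windows from RefSeq (GRCm38.p6).

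The factors, gene lists and rules were chosen with earlier results of these data known. Named genes were the 10 factors, Yy1, up to 3 higher and 3 lower genes with the smallest p of each list, annotated genes overlapping a factor or starting within 5 kb on the opposite strand, and the 3 protein-coding genes most like the called factor of largest change, which was also the factor of highest level. A gene that the rule names among the targets is not reported here. Alternatives were other scalings, DESeq2 1.42.0, limma-voom (limma 3.58.1), other filters, sense-strand counts, the mouse number as a block, a term for sex, each sex alone and leaving out each library. Hearts of a genotype differed from each other with chi-square values of 11.7 to 76.5 times their degrees of freedom, so each was counted as its own sample. The labels number separate mice and do not say whether equal numbers pair mice across genotypes. R 4.3.3 and Python were used.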

Additional observations from a re-analysis of the deposited data

Results flagged for a closer look

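Mef2d in YY1 KO 2 stood apart from the other YY1 KO hearts, at 163 CPM against 122 to 127 CPM. The gap to the nearest heart was 0.874 of the range of the group. Chance sets apart about 1 in 20 groups of 4 by this measure, and 22 groups (10 factors and Yy1 in both genotypes) were examined. Without that heart the log2 fold change of Mef2d was −0.27.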

How the results depend on the processing

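Hopx was called lower under every alternative except in the Xist-positive hearts alone (2 against 2), where Yy1 (−0.76, adjusted p = 0.116) was not called either. There, Nkx2-5 was at −0.29 and Hand2 at −0.40, and of the factors, the 4 lists and all tested genes, 0 were called lower and 0 higher (edgeR), with 3451 genes at an unadjusted p under 0.05. In the Y-positive hearts alone Gata6 was at 0.028 and Tbx5 at 0.28, 1730 genes were higher, coactivators numbered 2 higher and 3 lower, corepressors 0 higher and targets 2 higher. The number of factors called lower was 2 with RLE scaling, DESeq2, the term for sex and the mouse number as a replicate block, the added gene being Mef2c each time. With library size alone, 2 coactivators and 2 corepressors were higher. Leaving out each heart in turn gave a log2 fold change of −0.064 to 0.25 for Nkx2-5, −0.65 to 0.020 for Tbx5 and −0.15 to 0.13 for Hand2. The same steps gave 1 to 2 factors lower, 1 to 2 coactivators higher, 1 to 2 corepressors higher and 3 to 6 lower, 3 to 8 other cardiac factors lower, and 2 to 5 targets higher. The cause was not tested beyond the smaller number of hearts. The deviations of same-numbered mice from their genotype means correlated at −0.46, 0.34, −0.06 and 0.27 for numbers 1 to 4. Mice of the same number were also of the same sex by their transcripts, Xist-positive for 1 and 4 and Y-positive for 2 and 3. These values cannot decide whether the numbers pair the mice. The replicate block called 4026 genes, against 5248 without it.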
